A study of Mus musculus with 8 samples.

Results

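The 10 genes described here encode the stress-response factor NRF2 (Nfe2l2), its inhibitor KEAP1 (Keap1), and the enzymes of the thioredoxin, peroxiredoxin, superoxide dismutase and catalase reactions (Srxn1, Txn1, Txnrd1, Prdx1, Prdx6, Sod1, Sod2 and Cat). They were taken as the genes of the deposited expression table whose symbol equals one of these names, which gave 10 of 35275 genes listed. All 10 were among the 9794 genes tested, those with a mean of at least 1 FPKM (fragments per length of the gene, scaled to the mapped fragments of the library) in either group. RNA-Seq was performed on lens fiber cells (FC), the elongated cells that fill the ocular lens, separated from the lens epithelium of C57BL/6 mice (C57BL/6J in the study's methods). The 4 CS libraries came from mice kept in a whole-body cigarette smoke (CS) chamber for 5 hours per day and 5 days per week over 3.5 months, starting around birth. The 4 Ct libraries came from age-matched untreated control (Ct) mice of the animal facility. The labels name no transgene or other allele in either group, and the housing differed along with the smoke. Each library was a pool of the right-eye FC of 4 mice, so that differences between single mice cannot be seen. Pools were made from males or from females, but the labels do not tie a sex to a library.

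NRF2 is a transcription factor that KEAP1 holds in the cytoplasm and sends to degradation. When oxidants or electrophiles modify KEAP1, NRF2 builds up, pairs with a small MAF protein in the nucleus and binds antioxidant response elements near genes of detoxification and redox control. Since NRF2 is regulated mostly at the level of the protein, its own RNA need not follow its activity. Superoxide dismutases convert superoxide to hydrogen peroxide, which catalase and the peroxiredoxins remove. Thioredoxin reduces oxidized peroxiredoxins and other proteins, and is itself reduced by thioredoxin reductase with NADPH. Lens FC lose their organelles as they mature and keep their proteins for life, and oxidation of these proteins is a feature of cataract.

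Of the 10 genes, 9 had a promoter window in the RefSeq table for GRCm38.p6, running from 250 bases before to 50 bases after a start site, and Prdx6 had no entry. Txnrd1 had 3 windows, which made 11 in all. Each window of 300 bases was searched on both strands for TGACNNNGC, the core of the antioxidant response element, and for TGAGTCAGC, a form of the NRF2 and small MAF site that this core does not cover. One or both were found in 5 of the 11 windows, which belong to 5 of the 9 genes, and in 12.7% of all 32851 windows in the table. The Srxn1 window held TGAGTCAGC at positions -45 to -37 from the start site, a motif of 0.414% of all windows, and the core on the reverse strand at positions 29 to 37. The Prdx1 window held TGACTCAGC on the reverse strand at positions -133 to -125, a motif found in 0.454% of all windows. In both genes these letters overlap TGACTCA, the AP-1 type site, which 5.2% of all windows hold. Cores were also present in windows of Nfe2l2 (-240 to -232), Txnrd1 (-92 to -84) and Sod1 (-56 to -48). Windows of Keap1, Txn1, Sod2 and Cat did not hold these letters, which says nothing about sites elsewhere. The windows of Srxn1 and Prdx1 are shown because they hold TGAGTCAGC or TGACTCAGC, the NRF2 and small MAF site with every base given. That of Txn1 is shown because this gene had the largest difference between CS and Ct. They lie at chr2:152105274-152105573 on the plus strand, chr4:116685349-116685648 on the plus strand and chr4:57956362-57956661 on the minus strand, and capitals mark the motif matches of TGACNNNGC and TGAGTCAGC.
Srxn1: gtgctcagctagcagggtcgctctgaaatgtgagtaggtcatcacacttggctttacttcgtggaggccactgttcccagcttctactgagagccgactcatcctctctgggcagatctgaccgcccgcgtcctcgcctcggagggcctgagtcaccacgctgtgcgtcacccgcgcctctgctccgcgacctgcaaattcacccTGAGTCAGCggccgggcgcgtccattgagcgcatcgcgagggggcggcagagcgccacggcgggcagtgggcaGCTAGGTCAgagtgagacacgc
Prdx1: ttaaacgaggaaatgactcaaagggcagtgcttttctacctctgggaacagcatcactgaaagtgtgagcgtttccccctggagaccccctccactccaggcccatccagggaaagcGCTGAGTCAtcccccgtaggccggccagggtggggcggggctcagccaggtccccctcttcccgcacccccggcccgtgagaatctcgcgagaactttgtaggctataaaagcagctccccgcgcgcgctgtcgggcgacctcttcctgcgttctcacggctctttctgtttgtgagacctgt
Txn1: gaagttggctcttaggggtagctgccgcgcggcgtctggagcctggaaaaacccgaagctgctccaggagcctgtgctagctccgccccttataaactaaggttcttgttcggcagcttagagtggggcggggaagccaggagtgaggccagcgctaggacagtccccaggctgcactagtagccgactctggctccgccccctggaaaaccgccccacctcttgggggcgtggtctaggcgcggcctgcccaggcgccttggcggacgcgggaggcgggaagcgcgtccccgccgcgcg

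The relative depth of the libraries was estimated from the smallest steps of the FPKM values. The number of fragments, which also rests on exon union lengths, was estimated at 18100000 to 23300000. In the mean the CS libraries were 1.07 times as deep as the Ct libraries. The FC markers, 9 of 10 since Lim2 is listed in several entries and was left out, summed to 295336 to 302819 FPKM in Ct and 287431 to 297653 FPKM in CS, far above all other marker lists. Markers of the lens epithelium summed to 74.4 to 134 FPKM in Ct and 61.9 to 93.1 FPKM in CS, and the highest library was Ct 3. Of the 8 tested, 6 had a log2 fold change below 0, with a median of -0.32. At an unadjusted limma p under 0.05, 1 of them (Npnt) was lower, as were 2.08% of all genes tested. Rod photoreceptor markers summed to 11.04 to 29.7 FPKM in Ct and 32.3 to 93.6 FPKM in CS. Of these, 8 of 9 were higher at an unadjusted limma p under 0.05, as were 2.75% of all genes tested. Pigment epithelium markers summed to 1.54 to 2.10 FPKM in Ct and 3.03 to 25.8 FPKM in CS, with 4 of 4 tested genes higher at that threshold. No rod photoreceptor or pigment epithelium marker had an adjusted limma p under 0.05. Red blood cell markers were highest in CS 4, at 22.8 FPKM, and leukocyte markers stayed under 1 FPKM in sum in every library.

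Over the 8 libraries, the means of the 10 genes ranged from 441 to 2.58 FPKM. FPKM is per length, but levels set side by side between genes depend on the gene length the authors used, and with the exon union lengths given further on the range was 71.7 to 2.13. Sod1, the copper and zinc superoxide dismutase of the cytosol, stood first with a mean of 441 FPKM over the 8 libraries and was number 118 of the 9794 genes tested. Prdx6, a peroxiredoxin that also acts on phospholipids, followed at 140.1 FPKM, and Prdx1, a cytosolic peroxiredoxin, at 88.9 FPKM. Txn1 (25.8 FPKM) and Cat (23.5 FPKM) came next, then Sod2, the mitochondrial manganese enzyme, at 11.01 FPKM. The lowest 4 were Nfe2l2 (4.79 FPKM), Keap1 (4.44 FPKM), Txnrd1 (4.43 FPKM) and Srxn1 (2.58 FPKM). With the authors' lengths the highest 3 were thus cytosolic enzymes that act on superoxide and peroxide, and the lowest 4 the regulators and the reductases Txnrd1 and Srxn1.

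**Figure D1:**
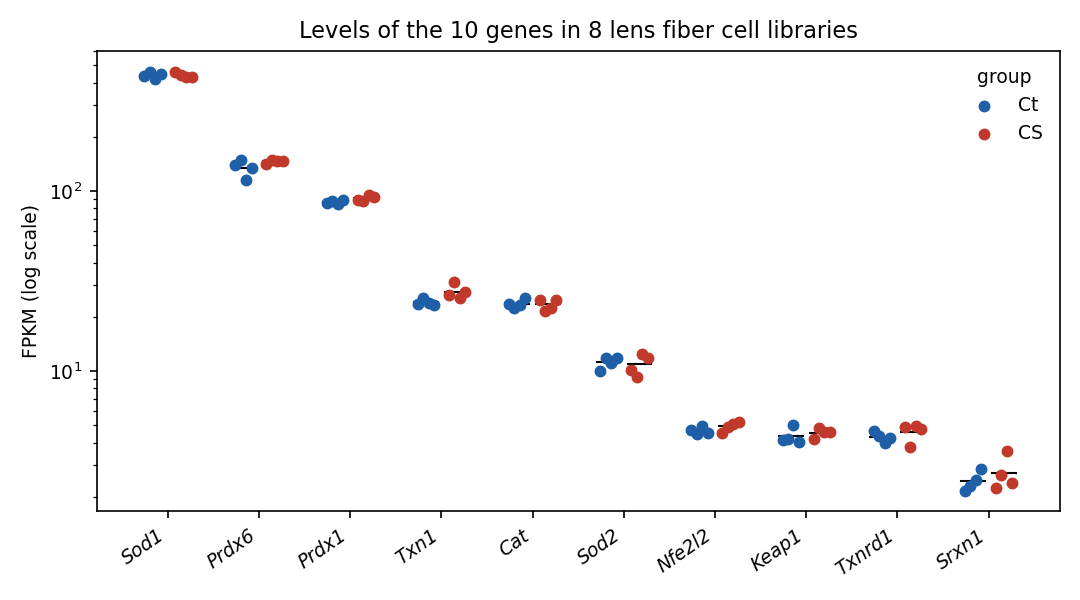
FPKM on a log axis of each of the 10 genes in the 4 Ct libraries (blue) and 4 CS libraries (red), with black lines at the group means. Genes are ordered by their mean over the 8 libraries, from Sod1 at 441 FPKM to Srxn1 at 2.58 FPKM, and the points of both groups lie close together for each gene.

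Neighbours in this order were compared within libraries by an exact sign-flip permutation test, two-sided, of the mean log2 ratio, adjusted by Benjamini-Hochberg over the 9 pairs. The order was taken from the same 8 libraries, so that the test shows only how steady each difference was over them. The difference passed for 7 of the 9 pairs, with an adjusted exact p of 0.0117 for 6 of them (0.00781 unadjusted, the smallest that 8 libraries allow) and 0.0201 for Nfe2l2 over Keap1. Sod1 was 3.15 times Prdx6 in the geometric mean, Prdx6 was 1.57 times Prdx1, and Prdx1 was 3.46 times Txn1, each in 8 of 8 libraries. With the authors' lengths Nfe2l2 exceeded its inhibitor Keap1 by 1.08 times, in 7 of 8 libraries. Txn1 and Cat did not differ beyond their spread (1.095 times, exact permutation p = 0.0625, adjusted 0.0703), nor did Keap1 and Txnrd1 (1.004 times, Keap1 higher in 2 of 8 libraries, adjusted exact permutation p = 0.938). The order rests on the gene length the authors divided by. For Sod1 that length was 646 bases, near the 641 bases of its protein-coding transcript Sod1-201 in GENCODE M21. The union of its exons there is 3970 bases, the length of the longer of its 2 transcripts. Dividing the recovered reads by the union put Sod1 at 71.7, Prdx6 at 69.6 and Prdx1 at 67.1 on the same scale. With these lengths, 3 of the 9 neighbour pairs passed, and for Sod1 over Prdx6 the adjusted exact permutation p was 0.343. The order of Nfe2l2 and Keap1 turned round, with Keap1 at 3.81 to 4.78 and Nfe2l2 at 2.92 to 3.41 over the 8 libraries, and the lowest 4 were Sod2 (4.21), Nfe2l2, Srxn1 and Txnrd1.

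Whether CS exposure changed the RNA of these genes was tested with limma on log2(FPKM + 0.1), two-sided, with Benjamini-Hochberg adjustment over the 9794 genes. No gene of the 10 passed at an adjusted p under 0.05, where 0.0102% of all genes tested did. The smallest adjusted p of the 10 was 0.956. At an unadjusted p under 0.05, 1 of the 10 (Txn1) passed, beside 4.83% of all genes tested. It was higher in CS, as were 2.75% of all genes at this threshold, and 0 were lower, beside 2.08%. Under limma-voom on the recovered reads 2 were higher at this threshold, beside 249 of all 9772 genes in that fit. In none of the 10 did the CS libraries lie wholly above or below the Ct libraries, a separation that 3.08% of all genes tested showed (1.8% higher and 1.29% lower). The log2 ratio of group means did not exceed 2 SD (a 1.401-fold change) in any of them, against 3.6% of all genes. The log2 fold change was above 0 in 7 of the 10 genes and in 51.2% of all genes, and its median was 0.07 over the 10 and 0.0043 over all genes. In these bulk pools, fewer cells of a type and less RNA per cell cannot be told apart.

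Among the regulators, Nfe2l2 (ENSMUSG00000015839, chr2:75675513-75704641 in GRCm38, as are the positions that follow) encodes NRF2 itself. It measured 4.67, 4.46, 4.95 and 4.49 FPKM in Ct 1 to 4 and 4.50, 4.90, 5.10 and 5.23 FPKM in CS 1 to 4, from 201 to 285 reads. Of the CS libraries 2 lay above every Ct library, while CS 1 lay among the lowest Ct libraries. The means were 4.64 ± 0.23 FPKM (SD, n = 4) in Ct and 4.93 ± 0.32 FPKM in CS. The log2 fold change was 0.08 (SE 0.09, 95% interval -0.11 to 0.28, limma adjusted p = 0.981). Its spread within groups, 4.88% in Ct and 6.45% in CS as a coefficient of variation, was close to the 6.36% that counting alone gives at this depth.

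Keap1 (ENSMUSG00000003308, chr9:21229730-21239361), the adaptor that hands NRF2 to a ubiquitin ligase, read 4.15, 4.203, 5.03 and 4.01 FPKM in the Ct libraries. Its CS values were 4.21, 4.80, 4.57 and 4.55 FPKM. Ct 3 was the highest of the 8 libraries and the CS values all fell within the Ct range. For Keap1 the log2 fold change was 0.06 (SE 0.10, 95% interval -0.16 to 0.28, limma adjusted p = 0.985). Without Ct 3, also the library with the highest summed lens epithelium markers, it was 0.13 (exact permutation p = 0.0571), and without Ct 4 it was 0.025. The part of these markers was not tested. The ratio of Nfe2l2 to Keap1, which does not depend on how a library was scaled, was 1.07 ± 0.07 in Ct and 1.09 ± 0.06 in CS (SD, n = 4). The ratio differed by 0.02 on the log2 scale (exact permutation p = 0.743, two-sided, 0.8 after adjustment over 4 ratios).

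The 3 tested genes whose pattern over the 8 libraries was most like that of Nfe2l2 were Hmox2, the constitutive heme oxygenase, Vdac2, a channel of the outer mitochondrial membrane, and Vps53, a subunit of a vesicle tethering complex. Likeness was the root mean square difference of centred log2 values, 0.03 for Hmox2 and Vdac2 and 0.04 for Vps53. These are the closest of all genes tested. The spread of Nfe2l2 was near its counting error of 6.36%, so that a shared pattern cannot be told apart from read sampling. Among the other 9 genes Keap1 was nearest (0.07, number 191 of all tested genes), followed by Prdx1 (0.08, number 300). Srxn1 was farthest, at 0.20.

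In the thioredoxin reaction, Txn1 (ENSMUSG00000028367, chr4:57943373-57956411), the cytosolic thioredoxin, had the largest fold change of the 10 genes. The Ct libraries measured 23.6, 25.5, 23.7 and 23.3 FPKM, and the CS libraries 26.4, 31.1, 25.3 and 27.5 FPKM. Every CS library exceeded the Ct mean, 3 of them exceeded every Ct library, and CS 3 lay just under Ct 2. The means were 24.04 ± 0.99 FPKM in Ct and 27.6 ± 2.50 FPKM in CS (SD, n = 4), from 443 to 754 reads. The log2 fold change was 0.19 (SE 0.07, 95% interval 0.04 to 0.35), which is 14.4% with an interval of 2.71% to 27.3%. The unadjusted limma p was 0.0187 and the adjusted p 0.956, and an exact permutation test of this gene alone, two-sided, gave p = 0.0571, where 0.0286 is the smallest that 4 against 4 libraries allow. Without CS 2, the highest library, the log2 fold change was 0.13 (unadjusted limma p = 0.0635, exact permutation p = 0.0857). The rod photoreceptor and pigment epithelium marker sums were also higher in every CS library than in any Ct library, though highest in CS 3, where Txn1 had its lowest CS value. Their part in the Txn1 result was not tested.

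Txnrd1 (ENSMUSG00000020250, chr10:82833951-82897712), the reductase that regenerates thioredoxin, is a selenoprotein of the cytosol. Its Ct values were 4.61, 4.33, 3.95 and 4.22 FPKM, and its CS values were 4.85, 3.78, 4.93 and 4.73 FPKM. CS 1, 3 and 4 lay above all Ct libraries, and CS 2 lay below all of them. This gave Txnrd1 a log2 fold change of 0.09 (SE 0.11, 95% interval -0.15 to 0.33, limma adjusted p = 0.985). Without CS 2 it was 0.18 (exact permutation p = 0.0571). CS 2 was thus the highest library for Txn1 and the lowest for Txnrd1, and its ratio of Txn1 to Txnrd1 was 8.23, against 5.13 to 6.01 in the other 7 libraries. The ratio was 5.64 ± 0.40 in Ct and 6.15 ± 1.41 in CS (SD, n = 4), a log2 difference of 0.10 (exact permutation p = 0.771, 0.8 adjusted). Without CS 2 the log2 difference was -0.04.

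**Figure D2:**
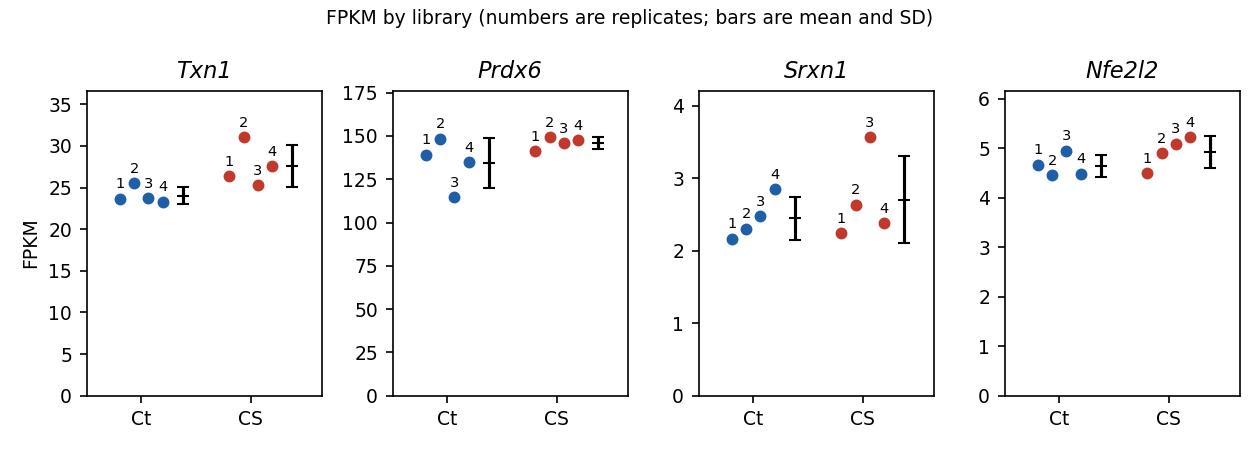
FPKM from 0 in each Ct (blue) and CS (red) library for Txn1, Prdx6, Srxn1 and Nfe2l2, with the replicate number over each point and the mean with its SD (n = 4) beside each group. Txn1 is highest in CS 2 at 31.1 FPKM, Prdx6 lowest in Ct 3 at 115 FPKM and Srxn1 highest in CS 3 at 3.57 FPKM, and the groups overlap for each gene.

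Among the peroxiredoxins, Prdx1 (ENSMUSG00000028691, chr4:116685544-116700822) is reduced by thioredoxin. It measured 85.9, 88.5, 84.7 and 88.9 FPKM in Ct and 88.7, 87.4, 94.95 and 92.4 FPKM in CS, from 3691 to 4632 reads. CS 3 and CS 4 lay above all Ct libraries and the other CS libraries within the Ct range. The resulting log2 fold change was 0.06 (SE 0.04, 95% interval -0.04 to 0.16, limma adjusted p = 0.956). Prdx1 varied little between pools. Only 1.57% of the tested genes had a smaller SD of log2 values within groups, though 96.1% of them had a lower mean FPKM. The coefficient of variation of Prdx1, 2.34% in Ct and 3.79% in CS, exceeded its counting error of 1.51%.

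Prdx6 (ENSMUSG00000026701, chr1:161240112-161251219) relies on glutathione rather than thioredoxin. The Ct libraries read 139, 148, 115 and 135 FPKM and the CS libraries 141, 149, 146 and 147 FPKM. All CS values exceeded the Ct mean, Ct 2 lay among them, and Ct 3 was the lowest library. The spread of Ct, 10.6% as a coefficient of variation, was wider than that of CS, 2.37%, and both were wider than the counting error of 1.19%. The means were 134 ± 14.3 FPKM in Ct and 146 ± 3.47 FPKM in CS (SD, n = 4). The log2 fold change was 0.13 (SE 0.07, 95% interval -0.02 to 0.28, unadjusted limma p = 0.0903, adjusted 0.956, exact permutation p = 0.143). The value depended on single Ct pools. It was 0.05 without Ct 3 (unadjusted limma p = 0.282, exact permutation p = 0.257) and 0.18 without Ct 2 (limma p = 0.0219, exact permutation p = 0.0286). On the recovered reads of all 8 libraries limma-voom gave 0.13, with an unadjusted p of 0.0375 beside the exact permutation p of 0.143 on FPKM. Ct 3 was also the library with the highest summed lens epithelium markers, 134 FPKM against 61.9 to 93.1 FPKM in the other 7, and their part in the result was not tested. The ratio of Prdx6 to Prdx1 was 1.54 ± 0.14 in Ct and 1.61 ± 0.07 in CS (SD, n = 4, exact permutation p = 0.514, 0.8 adjusted).

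Srxn1 (ENSMUSG00000032802, chr2:152105516-152111376) encodes sulfiredoxin, which restores peroxiredoxins that peroxide has oxidized too far, and is a known target of NRF2. It measured 2.16, 2.31, 2.48 and 2.85 FPKM in Ct and 2.24, 2.63, 3.57 and 2.38 FPKM in CS, from 121 to 206 reads. CS 3 stood above the other 7 libraries and the other CS libraries lay within the Ct range. The log2 fold change was 0.12 (SE 0.16, 95% interval -0.22 to 0.47, limma adjusted p = 0.985). Without CS 3 it was -0.01. This was the widest interval of the 10 genes, -14.4% to 38.6%, for the gene with the fewest reads, and its spread in CS, 22.1%, exceeded the counting error of 8.30%. CS 3 was also the library with the highest rod photoreceptor markers (93.6 FPKM) and pigment epithelium markers (25.8 FPKM), whose part in the Srxn1 value was not tested.

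**Figure D3:**
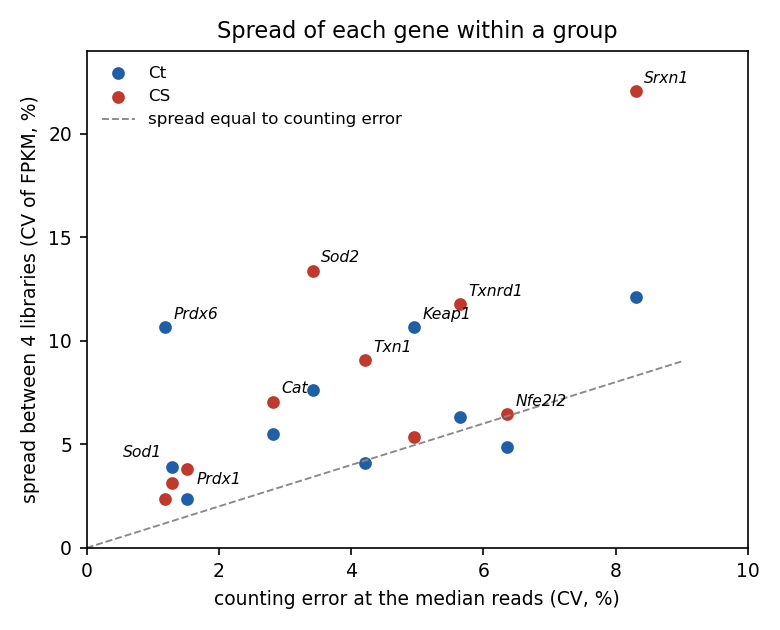
Coefficient of variation of FPKM over the 4 libraries of a group (vertical, in %) against the counting error at the gene's median reads (horizontal, in %), for the 10 genes in Ct (blue) and CS (red). Nfe2l2 lies near the dashed line of equal values, Srxn1 in CS reaches 22.1% at a counting error of 8.30%, and Prdx6 in Ct reaches 10.6% at 1.19%.

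Of the superoxide dismutases, Sod1 (ENSMUSG00000022982, chr16:90220754-90226329) measured 436, 460.3, 420.2 and 449 FPKM in Ct and 459, 439.6, 430.2 and 429.8 FPKM in CS. All CS values lay within the Ct range, and 1 of 4 was above the Ct mean. Sod1 had a log2 fold change of -0.01 (SE 0.04, 95% interval -0.09 to 0.08, limma adjusted p = 0.995). This interval was the narrowest of the 10 genes, -6.21% to 5.84%. Only 2.65% of the tested genes had a smaller SD within groups, though 98.8% of them had a lower mean FPKM. The coefficient of variation of Sod1, 3.89% in Ct and 3.14% in CS, exceeded its counting error of 1.30%.

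Sod2 (ENSMUSG00000006818, chr17:13006846-13040063) read 9.995, 11.9, 11.1 and 11.7 FPKM in Ct and 10.1, 9.22, 12.4 and 11.7 FPKM in CS. CS 2 was the lowest and CS 3 the highest of the 8 libraries, with all Ct values between them. Sod2 had a log2 fold change of -0.05 (SE 0.10, 95% interval -0.27 to 0.18, limma adjusted p = 0.989). The ratio of Sod1 to Sod2 was 39.7 ± 2.68 in Ct and 41.1 ± 6.39 in CS (SD, n = 4, exact permutation p = 0.8). Within CS it ran from 34.8 in CS 3 to 47.7 in CS 2.

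Cat (ENSMUSG00000027187, chr2:103453849-103485160), catalase, breaks down hydrogen peroxide mostly in peroxisomes. It measured 23.4, 22.3, 23.2 and 25.4 FPKM in Ct and 24.8, 21.7, 22.4 and 24.9 FPKM in CS, from 1151 to 1411 reads. The lowest library was CS 2 and the highest Ct 4, so that the groups were interleaved. For Cat the log2 fold change was -0.01 (SE 0.07, 95% interval -0.16 to 0.14, limma adjusted p = 0.995).

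Across the 10 genes the 95% intervals reached from -17.0% (Sod2) to 38.6% (Srxn1), and for 7 genes they lay wholly within 25% of no difference. The other 3 were Srxn1, Txn1 and Txnrd1, with upper bounds of 38.6%, 27.3% and 25.4%. An adjusted p above 0.05 therefore does not show equal levels. The intervals are those of single genes, not widened for the number of genes, and cover the spread between pools only. Near-identical copies of some of these genes exist in the mouse genome, pseudogenes of Txn1 and Prdx6 among them, and how the counting divided reads between copies is not stated.

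**Figure D4:**
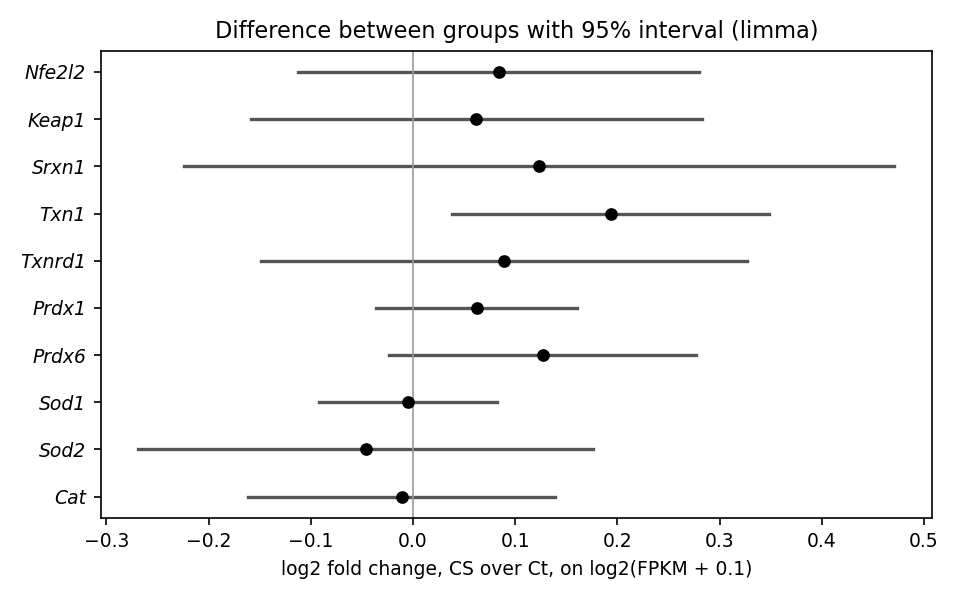
Log2 fold change of CS over Ct on log2(FPKM + 0.1) for each of the 10 genes (points) with its 95% interval from limma (lines, 4 Ct and 4 CS libraries). The interval of Txn1 (0.04 to 0.35) lies above 0 before any adjustment, and those of the other 9 genes cover 0.

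The rest of the pathway was described by 4 lists that hold none of the 10 genes, whose counts stand beside the 2.75% of all genes tested that were higher and the 2.08% that were lower at an unadjusted limma p under 0.05. Among 15 partners and regulators of NRF2, 11 were tested, with 0 higher and 0 lower at an unadjusted limma p under 0.05 and a median log2 fold change of 0.01. By limma-voom 1 was higher and 1 lower, beside 249 higher and 235 lower of 9772 genes. The most abundant, Park7, a redox-sensitive protein that stabilizes NRF2, had 842 ± 14.3 FPKM in Ct and 853 ± 12.7 FPKM in CS (SD, n = 4). Among 20 further NRF2 targets, 19 were tested, with 1 higher and 0 lower and a median of -0.02. That gene was Hmox1, the inducible heme oxygenase, with 298, 318, 259.7 and 299 FPKM in Ct and 327, 326, 361 and 348 FPKM in CS. Its groups did not overlap, as for 1.8% of all genes tested in this direction, and the log2 fold change was 0.22 (SE 0.06, unadjusted limma p = 0.0040, adjusted 0.956, exact permutation p = 0.0286, the smallest possible). CS 3 was the highest library for Hmox1 and for the rod photoreceptor and pigment epithelium markers, whose sums likewise did not overlap between the groups. Their part in the Hmox1 result was not tested. Ftl1, the ferritin light chain and the most abundant target, had 4965 ± 341 FPKM in Ct and 5201 ± 364 FPKM in CS (log2 fold change 0.07, limma, adjusted p = 0.965).

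Of 17 further genes of the thioredoxin system 15 were tested, with 1 higher and 1 lower at an unadjusted limma p under 0.05 and a median of 0.01. Tmx1, a thioredoxin-like protein of the endoplasmic reticulum membrane, had 21.5 ± 1.04 FPKM in Ct and 23.8 ± 1.21 FPKM in CS (log2 fold change 0.14, unadjusted limma p = 0.0463, exact permutation p = 0.0857). Msra, which reduces oxidized methionine, had 3.68 ± 0.65 FPKM in Ct and 2.76 ± 0.68 FPKM in CS (log2 fold change -0.41, unadjusted limma p = 0.0413, exact permutation p = 0.0571). Glrx3, a glutaredoxin and the most abundant of the list, had 90.8 ± 4.54 FPKM in Ct and 93.4 ± 5.43 FPKM in CS. Of 14 further peroxidase and superoxide genes 11 were tested, with 0 higher and 1 lower and a median of 0.0031. The lower gene was Gpx1, the main cytosolic glutathione peroxidase, at 76.1 ± 3.16 FPKM in Ct and 68.2 ± 7.82 FPKM in CS (log2 fold change -0.16, unadjusted limma p = 0.0456, exact permutation p = 0.143). Gpx4, the phospholipid glutathione peroxidase and the most abundant of this list, had 115 ± 7.16 FPKM in Ct and 119 ± 3.20 FPKM in CS. Hmox1, Tmx1, Msra and Gpx1 each had an adjusted limma p of 0.956.

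**Figure D5:**
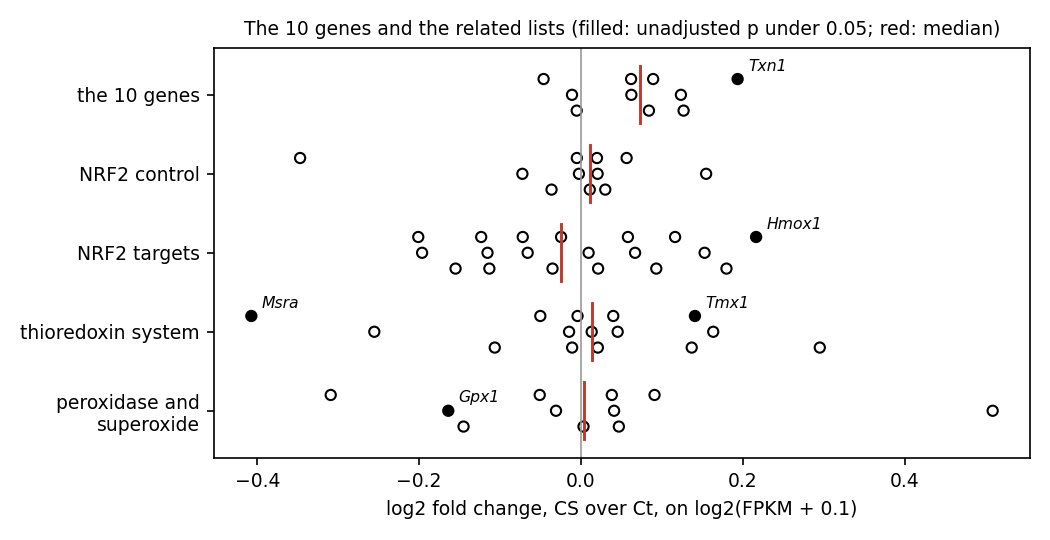
Log2 fold change of CS over Ct on log2(FPKM + 0.1) for each tested gene of the 10 genes and of the 4 related lists (points), filled where the unadjusted limma p was under 0.05, with the list medians in red. Medians run from -0.02 for the NRF2 targets to 0.07 for the 10 genes, and the filled points are Txn1, Hmox1, Tmx1, Msra and Gpx1.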

How the data were processed

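RNA-Seq libraries of lens FC were prepared from total RNA with the NEB Next Ultra kit and sequenced in paired ends. According to the submitters' processing notes, the authors aligned the reads to GRCm38 with STAR 2.5, counted them per gene with HTSeq 0.6.1 and deposited 1 table of FPKM values for the 8 libraries. The table also holds group means and a comparison by DESeq2 (fold change, p-value and adjusted p-value), which were not used. Whether counting used strand is not given in the sources used here, so that reads of overlapping genes on opposite strands cannot be told apart. The proteome and metabolome of the study were not analysed here.

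The groups (4 Ct and 4 CS libraries) were taken from the labels. The 9794 of 35275 genes whose mean reached 1 FPKM in Ct or in CS were analysed on log2(FPKM + 0.1) with limma 3.58.1 in R 4.3.3, with a variance trend, no replicate block and Benjamini-Hochberg adjustment over all genes tested. A fold change on this scale understates that of genes near the pseudocount. Single ratios and orders of levels were tested by exact permutation in Python 3.11.15 with scipy 1.17.1. The fit was tested on simulated data with known changes before use.

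Since FPKM from whole reads comes in steps, reads were recovered per gene. They came out whole within 0.02 reads in all libraries for 9772 of 9794 genes (99.8%), and gave the read numbers and counting errors, which cover sampling only. The length behind each FPKM, worked out from reads and depth, equalled that of a GENCODE M21 transcript for Nfe2l2, Srxn1, Txn1, Prdx1, Prdx6 and Cat. The depth itself is an estimate from reads, FPKM and exon union lengths, resting on 773 of 9261 genes that gave the same value. An implied length equal to the union, as for Txn1 and Cat, is therefore not independent of that estimate.

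The 10 genes and all gene lists were chosen with earlier results of these data known, so that no list is independent evidence. The genes named are the 10 genes, the most abundant gene of each related list, each gene of those lists with an unadjusted p under 0.05, and the 3 tested genes most like Nfe2l2. Marker genes are given as lists. Alternatives varied the pseudocount, the minimum, the scaling, the variance model, the block and the libraries included. Limma-voom on recovered reads, lengths from exon unions and exact tests of single genes of the related lists or with libraries left out were added after seeing the data.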

Additional observations from a re-analysis of the deposited data

Results flagged for a closer look

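In 44 groups of 4 libraries (each of the 22 genes or ratios described, in Ct and in CS), 1 library stood apart from the other 3 by Dixon's criterion in 4, where chance gives about 1 in 20, or 2.2. The ratio of Sod1 to Sod2 was 43.7 in Ct 1 and 37.97 to 38.8 in the other Ct libraries. Ftl1 had 4456 FPKM in Ct 3, against 5112 to 5175 FPKM in the other Ct libraries. Msra was set apart in both groups, with 2.70 FPKM in Ct 4 against 3.95 to 4.05 FPKM in the other Ct libraries, and 3.77 FPKM in CS 3 against 2.33 to 2.56 FPKM in the other CS libraries. None of the 10 genes had such a library in its FPKM values.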

How the results depend on the processing

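Over the alternatives that gave a value, the unadjusted p of Txn1 stayed under 0.05 in 18 of 20. It missed with the exact permutation test (log2 fold change 0.19, p = 0.0571) and without CS 2. The passes are limma fits of the same 8 libraries and are not independent of each other. With 1 library left out, the exact permutation p of Txn1 was 0.0286 without CS 3 and 0.0571 to 0.0857 otherwise. Prdx6 passed in 2 of 20, limma-voom on recovered reads (0.13) and without Ct 2, and the other 8 genes passed in none. With a minimum of 5 FPKM, Nfe2l2, Keap1, Srxn1 and Txnrd1 were not tested. No alternative gave any of the 10 genes an adjusted p under 0.05. Leaving out 1 library at a time, log2 fold changes ran from 0.13 to 0.23 for Txn1, 0.053 to 0.18 for Prdx6, -0.013 to 0.20 for Srxn1, -0.029 to 0.015 for Sod1, -0.11 to 0.028 for Sod2 and -0.041 to 0.025 for Cat. They ran from 0.056 to 0.13 for Nfe2l2, 0.025 to 0.13 for Keap1, 0.051 to 0.18 for Txnrd1 (highest without CS 2) and 0.041 to 0.081 for Prdx1. The log2 differences of ratios ran from -0.018 to 0.052 for Nfe2l2 to Keap1, -0.042 to 0.18 for Txn1 to Txnrd1 and -0.034 to 0.12 for Sod1 to Sod2, and from 0.0033 (without Ct 3) to 0.11 for Prdx6 to Prdx1.

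Counts at an unadjusted limma p under 0.05 were small and moved by 1 to 3 genes. Leaving out 1 library, the number of the 10 genes that were higher was 0 to 2 (0 without CS 2, 2 without Ct 2), and that of those whose groups did not overlap was 0 to 2 (Txn1 and Prdx6 without Ct 2), a separation shown by 5.52% to 6.23% of all genes tested with 1 library left out. The lists gave 0 to 1 higher and 0 to 1 lower among NRF2 partners, 0 to 3 lower among NRF2 targets (3 without CS 3), 0 to 2 higher and 0 to 1 lower in the thioredoxin system, and 0 to 1 lower among peroxidase and superoxide genes. Limma-voom gave 2 of the 10 genes higher and, of the NRF2 partners, 1 higher and 1 lower, beside 249 higher and 235 lower of 9772 genes. Centring on the median, and likewise rescaling without the 17 crystallin genes, gave 1 NRF2 target lower and 0 thioredoxin system genes higher. Without a variance trend, 0 thioredoxin system genes were higher, 0 lower and 0 peroxidase and superoxide genes lower. With no minimum FPKM, 0 thioredoxin system genes were lower. Of the neighbours in the order of levels, 3 differed with exon union lengths, 6 to 8 without 1 library, and 0 in Ct or in CS alone, where the smallest p for 4 libraries is 0.125. Over all genes, 269 were higher and 204 lower, against 200 and 287 after rescaling without crystallins and 220 and 286 without CS 3. With no minimum 457 were higher and 405 lower, and with a minimum of 5 FPKM 148 and 78. Apart from fewer genes or libraries, the cause of these differences was not tested.

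Deviations from the group mean in Ct and CS libraries of the same replicate number correlated at 0.01 to 0.16 over genes (mean 0.09). For different numbers the correlations were -0.13 to 0.06 (mean -0.03). Libraries of the same number were thus somewhat more alike in the mean, and what the numbers share was not tested. The main fit did not take the numbers as pairs. With the replicate block, the log2 fold change of Txn1 was 0.19 (limma p = 0.0141, exact sign-flip permutation p = 0.125, the smallest for 4 pairs), 276 genes were higher and 246 lower, 0 thioredoxin system genes were higher and 2 lower, and 2 peroxidase and superoxide genes were lower. Not every library correlated best with its own number. Depth limits Srxn1 and Nfe2l2 most, with 121 to 285 reads per library.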

Other observations

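The length that the deposited FPKM values imply differed from the union of exons in GENCODE M21 by 6.15 times for Sod1 (646 against 3970 bases), 2.62 times for Sod2 (3824 against 10008 bases), 2.07 times for Txnrd1 (3417 against 7086 bases) and 2.01 times for Prdx6 (2387 against 4804 bases). It was equal for Txn1 and Cat. Comparisons between Ct and CS do not depend on it, since a gene has 1 length in all libraries, whereas comparisons between genes do. Per kilobase of exon union, Txnrd1 took the last of the 10 places (2.13) in place of Srxn1 (2.57), and Sod2 stood at 4.21, next to Keap1 at 4.23.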
